A study of Homo sapiens with 6 samples.

Results

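The genes described here are CPA4, CPD, CPE, CPM and CPQ, which encode carboxypeptidases, and LXN, which encodes latexin. Latexin is an inhibitor of carboxypeptidases of the class of CPA4. The genes were taken by symbol, 6 of the 30327 genes in the count table. They were chosen by the read counts of this comparison, in that CPA4 was lower after GRB2 knockdown. Its relatives and LXN were added. The comparison of si_GRB2 with si_NC therefore chose the set, so the values of these genes in it are a description, no p-value is given for them, and counts of how many passed a threshold carry no weight as evidence. RNA was sequenced from SK-BR-3, an established HER2-overexpressing breast cancer cell line. The si_NC group was 3 libraries made after a nontargeting siRNA, and the si_GRB2 group was 3 libraries made after an siRNA against GRB2, the adaptor protein that links receptor tyrosine kinases to RAS. Both groups thus went through siRNA transfection, and the model is 1 cell line. The descriptions of the treated libraries name si_GRB2, while their titles and genotype labels name GRB2 overexpression. Nothing in the labels says whether the libraries came from separate cultures, so errors and p-values measure the spread between these libraries.

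Carboxypeptidases remove single amino acids from the C-terminal end of proteins and peptides. The zinc-dependent M14 family holds the A/B enzymes such as CPA4, which are made as secreted proenzymes and mostly take off hydrophobic or basic residues, and the N/E enzymes CPD, CPE and CPM, which take off lysine and arginine. CPE acts in secretory granules on prohormone intermediates, CPD is a transmembrane enzyme that cycles through the trans-Golgi network, and CPM is anchored by a lipid on the cell surface, where it can trim kinins. CPQ belongs to another zinc peptidase family, M28, and latexin is a protein inhibitor of A/B carboxypeptidases. CPA4 was first found as a gene induced by histone deacetylase inhibitors in prostate cancer cells.

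The libraries held between 24810378 and 28532480 reads on genes. GRB2 had 124 to 130 CPM (counts scaled to a common library size with TMM factors) in si_NC and 27.8 to 29.6 CPM in si_GRB2, so every treated library was below every control library, in keeping with the descriptions and not with the titles. Of 10 markers of this HER2-positive epithelium, 9 had at least 1 CPM in every library. ERBB2 had 3415 to 3557 CPM in si_NC and 3988 to 4229 CPM in si_GRB2, and FOXA1 was likewise higher in every si_GRB2 library, while KRT8, KRT18 and KRT19 were lower in every one. CDH1, the epithelial cadherin, had only 1 to 3 reads per library. The 10 markers summed to 17593 to 17975 CPM in si_NC and 14773 to 15358 CPM in si_GRB2. The 5 fibroblast markers summed to 4.03 to 5.95 and 4.57 to 5.14 CPM, the 5 leukocyte markers to 1.03 to 1.82 and 0.636 to 0.983 CPM, and the 3 endothelial markers, nearly all of it CDH5, to 28.9 to 30.9 and 17.5 to 21.4 CPM. PTPRC, TYROBP, PECAM1, DCN and LUM had at most 2 reads in any library. The part of these shifts in the results below was not tested.

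CPA4 (ENSG00000128510.12) lies on the plus strand of chromosome 7 of GRCh38 from 130293134 to 130324180 and has 11 exons. The 250 bases before its RefSeq start (GRCh38.p14) hold 2 matches to the letters of the AP-1 site, TGANTCA, searched on both strands, and 1 TATAAA, searched on the sense strand. They are shown because AP-1 factors are a textbook end point of the RAS pathway that GRB2 feeds and because CPA4 leads the set. The part of these letters in the level of CPA4 was not tested. Both stretches are on the plus strand and the capitals mark the AP-1 letters.
CPA4 chr7:130293102-130293131: ttttgaggactTGAGTCActctcagactct
CPA4 chr7:130293131-130293160: tttataaatacagctTGACTCAgccactgt
The first match begins 48 bases and the second 15 bases before the start, and the TATAAA at the left of the second stretch begins 28 bases before it. That RefSeq start is 130293161, inside the gene bounds given above, which come from GENCODE and begin at 130293134. The second match thus lies within those bounds, and the TATAAA crosses their first base. Of 35116 RefSeq promoters, 6.57% held at least 1 TGANTCA in the same window, 0.402% held 2 or more, and 6.80% held TATAAA. The promoter of CPA4 had no CpG and 44.4% GC, against medians of 11 CpG and 58.0% GC over all promoters. The second promoter of CPD (3 CpG, 45.2% GC) and the third of CPM (6 CpG, 47.6% GC) were also below both medians. The remaining promoters of members had 7 to 41 CpG and 60.0% to 81.6% GC. Among the other members with a promoter entry, CPD held 1 TGANTCA in the second of its 2 promoters, 91 bases before the start. That match and its flanks are given for comparison.
CPD chr17:30380376-30380405: atttttacctcTGACTCAgcttaagaagat
CPE with 1 promoter, CPM with 3 and LXN with 1 held no TGANTCA. LXN held 1 TATAAA, 213 bases before its start, while CPD, CPE and CPM held none. None of the promoters searched held the cAMP response letters TGACGTCA, which 1.65% of all promoters held. The RefSeq starts used for CPE (165379008) and CPM (68933199, 68933171 and 68932622) lie inside the gene bounds given below. For these genes, the sequence before those bounds was not searched. A match of letters is a description and not a binding site, and which start these cells used was not measured.

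CPA4 was the most changed of the 6 genes. Its si_NC libraries held 109, 108 and 106 CPM, and its si_GRB2 libraries 56.2, 58.4 and 57.5 CPM. All 3 si_GRB2 libraries were below all 3 si_NC libraries, and the gap was many times the range within either group. The means were 108 ± 1.49 CPM and 57.4 ± 1.081 CPM (SD, n = 3 each), a log2 fold change of −0.91 (standard error, SE, 0.035), or 0.533 of the control level. Among 15801 tested genes, 136 had a lower log2 fold change than CPA4. With 13258 reads over the libraries, its coefficient of variation was 1.38% in si_NC and 1.88% in si_GRB2.

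LXN (ENSG00000079257.8) moved the same way as the enzyme of the class it inhibits. Its 6 exons span 158645822 to 158672648 on chromosome 3, minus strand. Its values were 41.0, 39.2 and 39.1 CPM in si_NC and 26.0, 23.9 and 24.2 CPM in si_GRB2. Again every si_GRB2 library was below every si_NC library. The means were 39.8 ± 1.07 and 24.7 ± 1.14 CPM (SD, n = 3 each), with a log2 fold change of −0.69 (SE 0.049), or 0.620 of the control level, and 341 genes had a lower log2 fold change. GFM1, a mitochondrial elongation factor gene on the opposite strand, overlaps LXN and shares 45 exonic bases with it, 3.08% of the exonic bases of LXN. GFM1 had reads equal to 437% of those of LXN, and the counting of strand is not stated, so shared reads cannot be set apart. GFM1 itself was slightly higher in si_GRB2, with a log2 fold change of 0.13 (SE 0.032, edgeR adjusted p = 0.00563).

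CPE and CPM, both of the N/E class that trims basic residues, were higher in si_GRB2. CPE (ENSG00000109472.14, chromosome 4, plus strand, 165361194 to 165498547) had 71.5, 65.8 and 66.5 CPM in si_NC and 81.7, 83.5 and 81.9 CPM in si_GRB2. The groups did not overlap, and the means were 67.9 ± 3.11 and 82.4 ± 0.966 CPM (SD, n = 3 each), with a log2 fold change of 0.28 (SE 0.039). CPM (ENSG00000135678.12, chromosome 12, minus strand, 68842197 to 68971570) had 16.0, 16.0 and 14.0 CPM in si_NC and 19.6, 21.2 and 18.8 CPM in si_GRB2. Here too the groups did not overlap, although the spread relative to the level was wider than for CPA4, with 2799 reads in all. The means were 15.3 ± 1.14 and 19.9 ± 1.20 CPM (SD, n = 3 each), with a log2 fold change of 0.37 (SE 0.070). MDM2, the p53 ubiquitin ligase gene, overlaps CPM on the opposite strand with 133 shared exonic bases, 1.77% of the exonic bases of CPM, and had reads equal to 409% of those of CPM. MDM2 also rose, by a log2 fold change of 0.21 (SE 0.040, edgeR adjusted p = 0.000770), and its part in the value of CPM was not tested.

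CPD (ENSG00000108582.12, chromosome 17, plus strand, 30378927 to 30469989), with the most reads of the set, differed little. Its values were 128.5, 123.6 and 123.7 CPM in si_NC and 113.0, 119.4 and 123.8 CPM in si_GRB2. The highest si_GRB2 library lay above the 2 lower si_NC libraries, so the groups overlapped. The log2 fold change was −0.077 (SE 0.037). CPQ (ENSG00000104324.16, on chromosome 8) had 2, 1 and 2 reads in si_NC and 3, 0 and 0 reads in si_GRB2. None of these exceeds the 3 reads that a count of 0 allows in a library, so CPQ was not detectable at this depth and no fold is given.

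**Figure D1:**
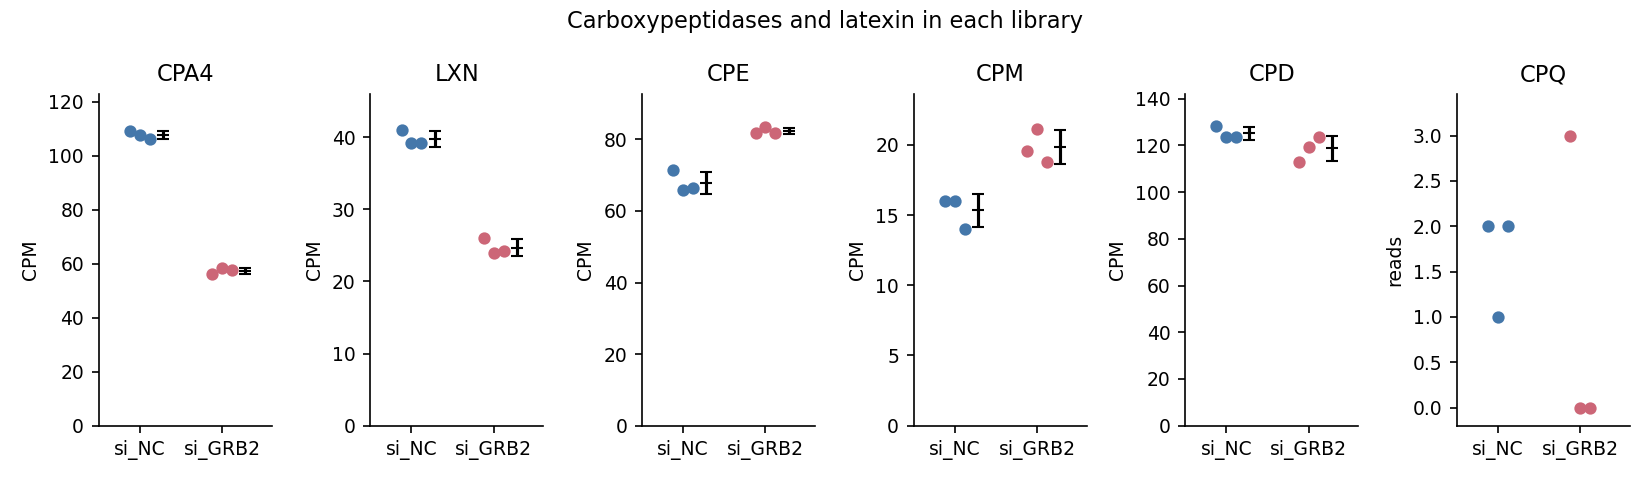
Each point is a library, in CPM after TMM scaling (CPQ in reads), and black bars give the mean ± SD of 3 libraries. CPA4 sits at 106 to 109 CPM in si_NC and 56.2 to 58.4 CPM in si_GRB2, LXN is lower and CPE and CPM are higher in every si_GRB2 library, CPD overlaps, and CPQ has at most 3 reads.

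Of the 6 genes, 5 had enough reads to be tested in the fit over all genes. At an adjusted p under 0.05 in edgeR's quasi-likelihood test, 4 of the 5 were called, 2 lower and 2 higher in si_GRB2, where 30.6% of all tested genes were called, 15.5% lower and 15.2% higher. CPA4 and LXN were also DEGs, which needed a change of more than 1.5-fold in either direction and an adjusted p under 0.01. DEGs were 2.52% of all tested genes, and down-regulated ones 1.69%, while no member was an up-regulated DEG, where 0.829% of genes were. In 4 of the 5 the libraries of both groups did not overlap, which held for 42.3% of tested genes. The median log2 fold change was −0.077 over these 5 genes and 0.0019 over all tested genes. As the comparison chose the set, nothing is read from these counts.

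**Figure D2:**
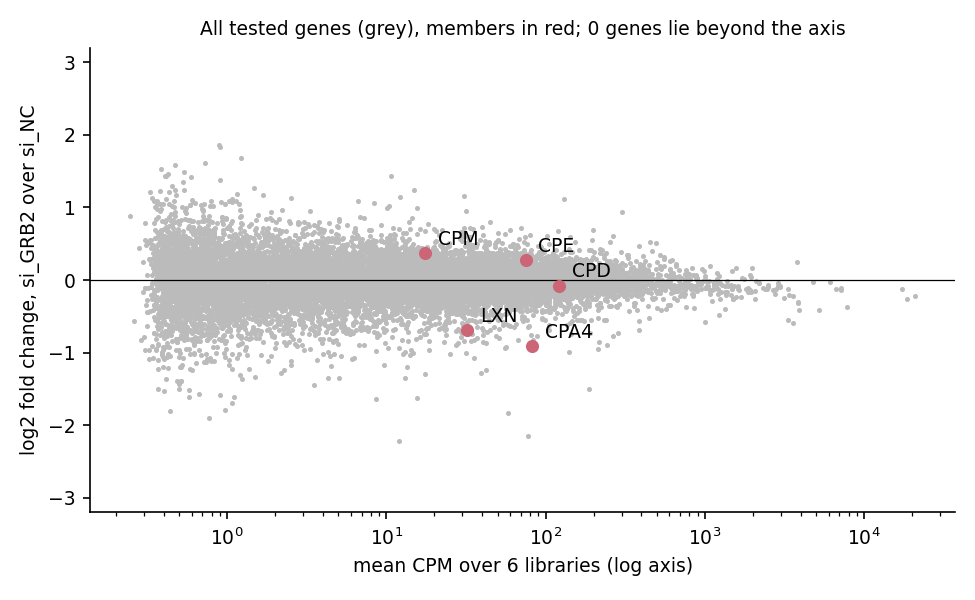
Every tested gene is a grey point, with mean CPM over the 6 libraries on a log axis and the log2 fold change of si_GRB2 over si_NC, and the 5 tested members are red. CPA4 at −0.91 and LXN at −0.69 lie at the lower edge of genes of like abundance, CPE at 0.28 and CPM at 0.37 lie above 0, and CPD at −0.077 lies near 0.

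Levels of different genes were compared per length, in the authors' FPKM. In si_NC the order was LXN at 21.9 ± 0.535 FPKM, CPA4 at 21.8 ± 0.512, CPE at 17.5 ± 0.604, CPD at 8.04 ± 0.203 and CPM at 1.63 ± 0.0721 FPKM (SD, n = 3 each). LXN and CPA4 did not differ beyond their spread, and each of the other steps was larger than the SDs of both neighbours. LXN and CPA4 were each above 94.3% of the 29912 genes in the FPKM table, CPE above 92.9%, CPD above 86.4% and CPM above 68.5%. In si_GRB2, CPE came first at 21.9 ± 0.808 FPKM, followed by LXN at 14.0 ± 0.254, CPA4 at 12.003 ± 0.555, CPD at 7.86 ± 0.548 and CPM at 2.18 ± 0.162 FPKM (SD, n = 3 each). All of these steps exceeded the SDs of both neighbours, including that from LXN to CPA4. CPQ was listed at 0.01 to 0.02 FPKM in si_NC, and at 0.03, 0 and 0 FPKM in si_GRB2.

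The transcripts of CPA4 and LXN were thus at nearly equal FPKM in the control cells. Protein was not measured, and the lower level of CPA4 that chose the set enters the ratio, the sum and the shares given next. The ratio of CPA4 to LXN was 0.982, 1.01 and 1.00 in the si_NC libraries and 0.797, 0.900 and 0.877 in the si_GRB2 libraries. The ratio was lower in every si_GRB2 library, with means of 0.998 ± 0.0154 and 0.858 ± 0.0542 (SD, n = 3 each). FPKM of 13 A/B and N/E carboxypeptidase genes in the FPKM table summed to 50.7 ± 1.09 in si_NC and 45.1 ± 2.08 in si_GRB2 (SD, n = 3 each). CPA4 made up 43.1% ± 0.613 of that sum in si_NC and 26.6% ± 0.0244 in si_GRB2, and CPE 34.5% ± 0.700 and 48.5% ± 0.529. CPD went from 15.9% ± 0.0844 to 17.4% ± 0.634 and CPM from 3.22% ± 0.209 to 4.84% ± 0.239 of the sum (SD, n = 3 each). A lower CPA4 by itself raises the share of every other gene. The FPKM of CPD, for example, was 8.04 in si_NC and 7.86 in si_GRB2, although its share rose. The remaining genes together gave 3.37% and 2.64%. By FPKM, the leading transcript of this family was CPA4 in all 3 si_NC libraries and CPE in all 3 si_GRB2 libraries. As CPA4 was chosen for its lower level, this order is a description.

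**Figure D3:**
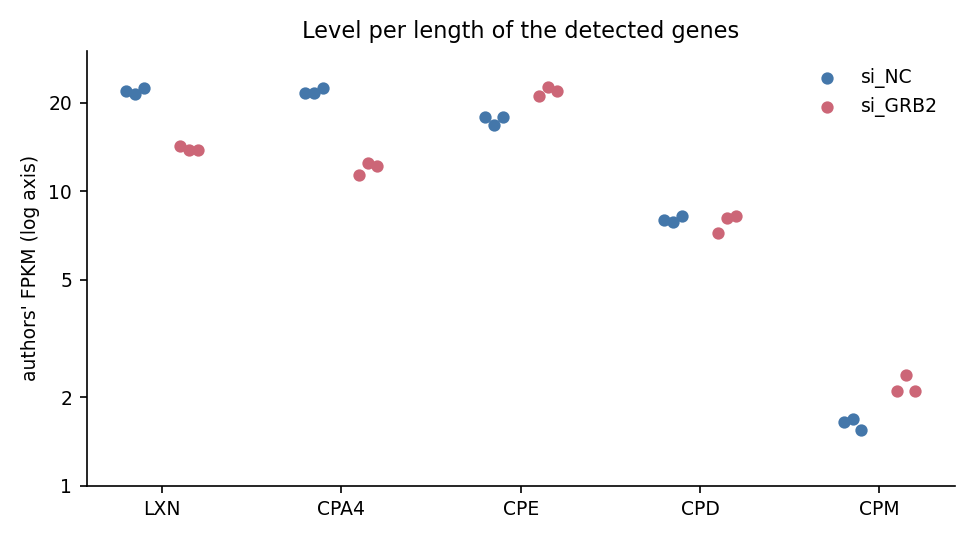
Points are the authors' FPKM of each library on a log axis, blue for si_NC and red for si_GRB2, for the 5 detected genes in the order of their si_NC means. LXN and CPA4 start near 22 FPKM and end at 14.0 and 12.003 FPKM, while CPE goes from 17.5 to 21.9 FPKM.

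Other A/B carboxypeptidases were scarce in these cells. Of 8 such genes, 5 were in the count table and 1, CPA5, had enough reads to test. CPA5, a neighbour of CPA4 on chromosome 7, had 3.28, 2.86 and 3.32 CPM in si_NC and 1.39, 2.003 and 1.82 CPM in si_GRB2. The groups did not overlap, and CPA5 fell by 0.86 on the log2 scale (SE 0.18, edgeR adjusted p = 0.00157), on 35 to 93 reads per library. The call was lost with limma on log2(FPKM + 1) and log2(FPKM + 0.1), at log2 fold changes of −0.32 and −0.71. Of 6 genes of the N/E class and its carrier subunit CPN2, 4 were in the table and 1 was tested. AEBP1, which encodes an extracellular matrix protein with a carboxypeptidase-like domain, went from 3.49 ± 0.250 to 2.45 ± 0.219 CPM (SD, n = 3 each), a log2 fold change of −0.51 (SE 0.15, edgeR adjusted p = 0.0174). That call was lost without si_NC replicate 1 (log2 fold change −0.46), without si_GRB2 replicate 2 (−0.48), without si_GRB2 replicate 3 (−0.46) and with DESeq2.

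RARRES1, the gene of a membrane protein related to latexin, lies next to LXN and fell the furthest of all genes on these lists. It had few reads, 26, 31 and 24 in si_NC and 9, 10 and 7 in si_GRB2. The groups did not overlap, with 1.00 ± 0.191 and 0.333 ± 0.0488 CPM (SD, n = 3 each). The log2 fold change was −1.56 (SE 0.31, edgeR adjusted p = 0.00112), and DESeq2 gave it no adjusted p.

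The neighbourhoods of CPA4 and LXN were examined next, taking genes within 250 kb. Around CPA4, 12 of 18 genes in the table were tested and 4 were called, 2 lower and 2 higher, where 30.6% of all tested genes were called. The small numbers around each member are to be read against that share. CPA5, 20.6 kb beyond the end of CPA4 on the same strand, was the only one of the 12 that was a down-regulated DEG. COPG2IT1, a noncoding gene 215 kb away in the imprinted MEST region, rose from 2.23 to 3.88 CPM, a log2 fold change of 0.80 (SE 0.19, edgeR adjusted p = 0.00333). The other log2 fold changes around CPA4 ran from −0.34, for a noncoding gene that did not pass, to 0.17. Around LXN, 7 of 12 genes were tested and 3 were called. RARRES1, 24.2 kb away on the same strand, was lower, and GFM1 and MFSD1 were higher, each by less than 0.2 on the log2 scale. RP11-538P18.2, a noncoding gene, had a log2 fold change of 0.31 (SE 0.43) and did not pass.

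**Figure D4:**
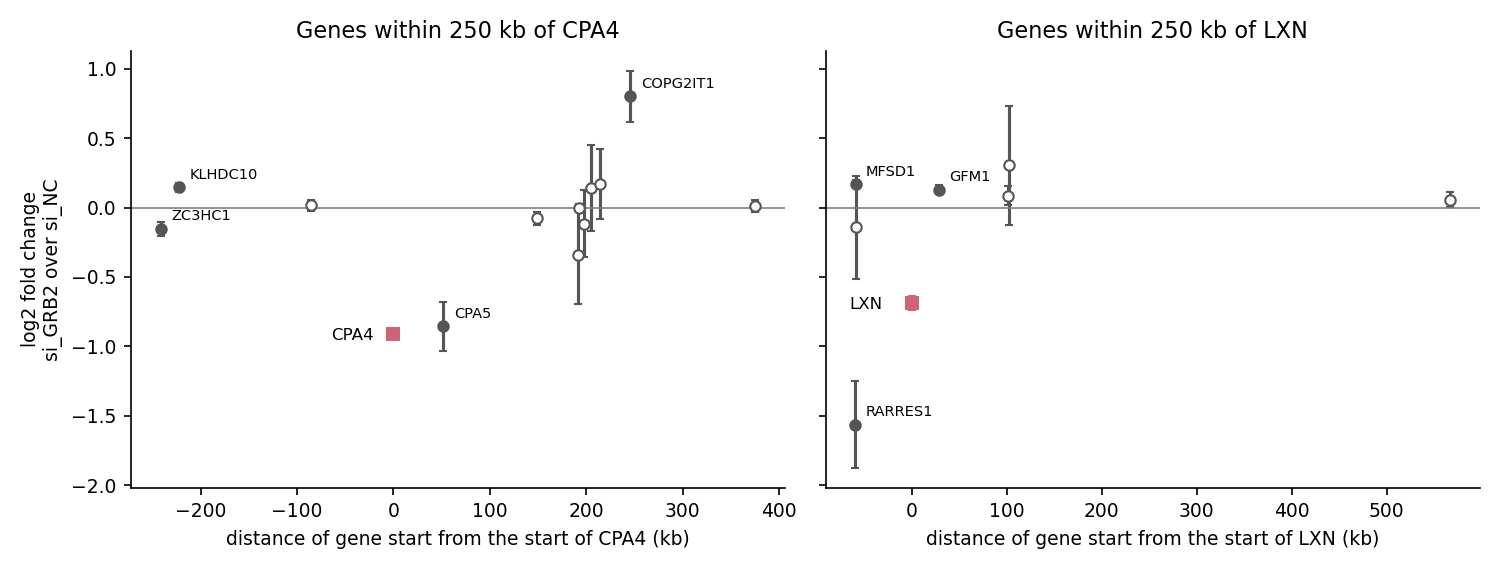
The log2 fold change of each tested gene within 250 kb is plotted against the distance of its start from that of CPA4 (left) or LXN (right), in kb along the direction of transcription, with standard errors and filled points where adjusted p was under 0.05. CPA4 (red, −0.91) has CPA5 at −0.86 beside it, LXN (red, −0.69) has RARRES1 at −1.56, and most of the other tested neighbours lie near 0.

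Around CPM, 3 of 5 tested genes were called, MDM2 and SLC35E3 higher and 1 lower, all within 0.21 of 0 on the log2 scale. The noncoding RP11-611O2.5, inside CPM on its strand, had a log2 fold change of 0.13 (SE 0.33). Around CPE, 2 of 3 were called, both higher. MSMO1, a sterol synthesis enzyme gene 18.0 kb from CPE, rose by 0.30 (SE 0.034, edgeR adjusted p = 5.65e-06), and KLHL2 had a value of −0.24 (SE 0.10) and did not pass. Around CPD, 1 of 6 was called, and the values ran from −0.13 to 0.20. Near CPQ the only tested gene was TSPYL5, which rose by 0.66 (SE 0.14, edgeR adjusted p = 0.00143), although CPQ itself had almost no reads.

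Lists of genes that work beside these enzymes, or do the same chemistry by other means, were read from the same fit. The lists were chosen with earlier results of these data known, so their counts are a description. Over 9 lists with 68 genes, 58 were in the table, 34 were tested and 16 (47.1%) were called, 10 higher and 6 lower, beside 30.6% of all tested genes. The small counts of each list below are to be read against that share of all tested genes, 15.2% called higher and 15.5% called lower. The DEGs among the list genes were 1 up-regulated and 2 down-regulated. The median log2 fold change was 0.067, against 0.0019 for all tested genes. With DESeq2, 9 of these genes were called. With limma on log2(FPKM + 1), CPA5, AEBP1, AGBL5, NCLN, SCPEP1, PRCP, CTSZ, PAM, PCSK4 and BDKRB2 lost their calls. NCLN, SCPEP1 and BDKRB2 kept them when that fit held only genes with a mean FPKM of at least 1. BDKRB2 also kept its call with log2(FPKM + 0.1).

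Carboxypeptidases of the cytosol shorten the polyglutamate and C-terminal tails of tubulin. Of 6 such genes 3 were tested and 1 was called. AGBL5 went from 22.9 ± 1.86 to 19.99 ± 1.599 CPM (SD, n = 3 each), a log2 fold change of −0.20 (edgeR adjusted p = 0.0424), and that call was lost without si_NC replicate 1 (−0.15) or 2 (−0.19), without si_GRB2 replicate 2 (−0.18) or 3 (−0.15) and with DESeq2. AGTPBP1 and AGBL3 had log2 fold changes of 0.14 and 0.29 and did not pass. The tubulin tyrosine cycle, in which vasohibins and MATCAP1 remove the last tyrosine and TTL restores it, had 5 of 6 genes tested and 1 called. SVBP, the small chaperone that vasohibins need, rose from 5.12 ± 0.288 to 9.31 ± 1.14 CPM (SD, n = 3 each), a log2 fold change of 0.86 (SE 0.11, edgeR adjusted p = 2.31e-05). It was the up-regulated DEG of these lists. TTL and MATCAP2 had log2 fold changes of 0.082 and −0.077 and did not pass.

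The M28 relatives of CPQ included well-expressed genes although CPQ was not. Of 10, 8 were tested and 2 were called, both higher. TFRC, the transferrin receptor, which keeps a peptidase-like fold without activity, rose from 371 ± 9.96 to 532 ± 11.1 CPM (SD, n = 3 each), a log2 fold change of 0.52 (SE 0.028, edgeR adjusted p = 1.04e-09). NCLN, nicalin, rose by 0.17 (edgeR adjusted p = 0.00196), while ERMP1 and QPCTL, at 0.088 and −0.077, did not pass. ERMP1 passed with the robust fit, without si_NC replicate 1 (0.12) and without si_GRB2 replicate 1 (0.11). Among carboxypeptidases of other classes, 6 of 8 were tested and 5 were called, 3 higher and 2 lower, each by less than 0.3 on the log2 scale. CPVL, a serine carboxypeptidase-like gene, fell from 141 ± 2.35 to 118 ± 3.13 CPM (SD, n = 3 each), a log2 fold change of −0.25 (edgeR adjusted p = 1.68e-05). The lysosomal peptidase gene CTSB rose by 0.17 (edgeR adjusted p = 0.000997). SCPEP1, at 0.14, lost its call without si_NC replicate 2 (0.11) or si_GRB2 replicate 3 (0.13), and CTSZ, at −0.14, without si_NC replicate 1 (−0.086) or 2 (−0.15), without si_GRB2 replicate 2 (−0.14) or 3 (−0.11), with DESeq2 and with the robust fit. CTSA, the lysosomal protective protein, was the most abundant at 622 and 645 CPM and did not pass (log2 fold change 0.052).

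CPE and CPD follow the proprotein convertases in the secretory pathway. Of 15 genes of prohormone processing, 14 were in the table and 6 were tested. Of these, 3 were called, all higher, where 30.6% of all tested genes were called and 15.2% were called higher. FURIN, the convertase of the trans-Golgi network, rose from 33.7 ± 0.407 to 38.9 ± 1.81 CPM (SD, n = 3 each), a log2 fold change of 0.21 (edgeR adjusted p = 0.00238). PAM, the amidating enzyme that acts after CPE, had a log2 fold change of 0.29 (edgeR adjusted p = 0.0161), lost without si_GRB2 replicate 2 (0.27) or 3 (0.25) and with DESeq2. PCSK4, on 7 to 30 reads per library, had 1.24 (edgeR adjusted p = 0.0271), lost without si_NC replicate 1 (1.24) or 2 (1.15) or si_GRB2 replicate 1 (0.78). DESeq2 gave PCSK4 no adjusted p, and PCSK4 was not in the fit with at least 10 counts in every library. PCSK7 and SCG2 had log2 fold changes of −0.0086 and 0.000081 and did not pass. PCSK6, on 7 to 24 reads per library, had −0.73 (SE 0.36) and did not pass either. Of the granule genes of endocrine cells, CHGA, CHGB, SCG3, SCG5, PCSK2 and PCSK1N had no more than 5 reads in any library. SCG2 had 16 to 29 reads per library and PAM 242 to 322. In the kinin system, which CPM can modify on the cell surface, 3 of 8 genes were tested and 1 was called. BDKRB2, the constitutive bradykinin receptor, rose from 22.4 ± 0.942 to 28.5 ± 1.69 CPM (SD, n = 3 each), a log2 fold change of 0.35 (SE 0.057, edgeR adjusted p = 0.000188). BDKRB1, the receptor for kinins trimmed of their last arginine, had 0.981 and 1.06 CPM and did not pass (log2 fold change 0.12), nor did XPNPEP1 (−0.018).

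**Figure D5:**
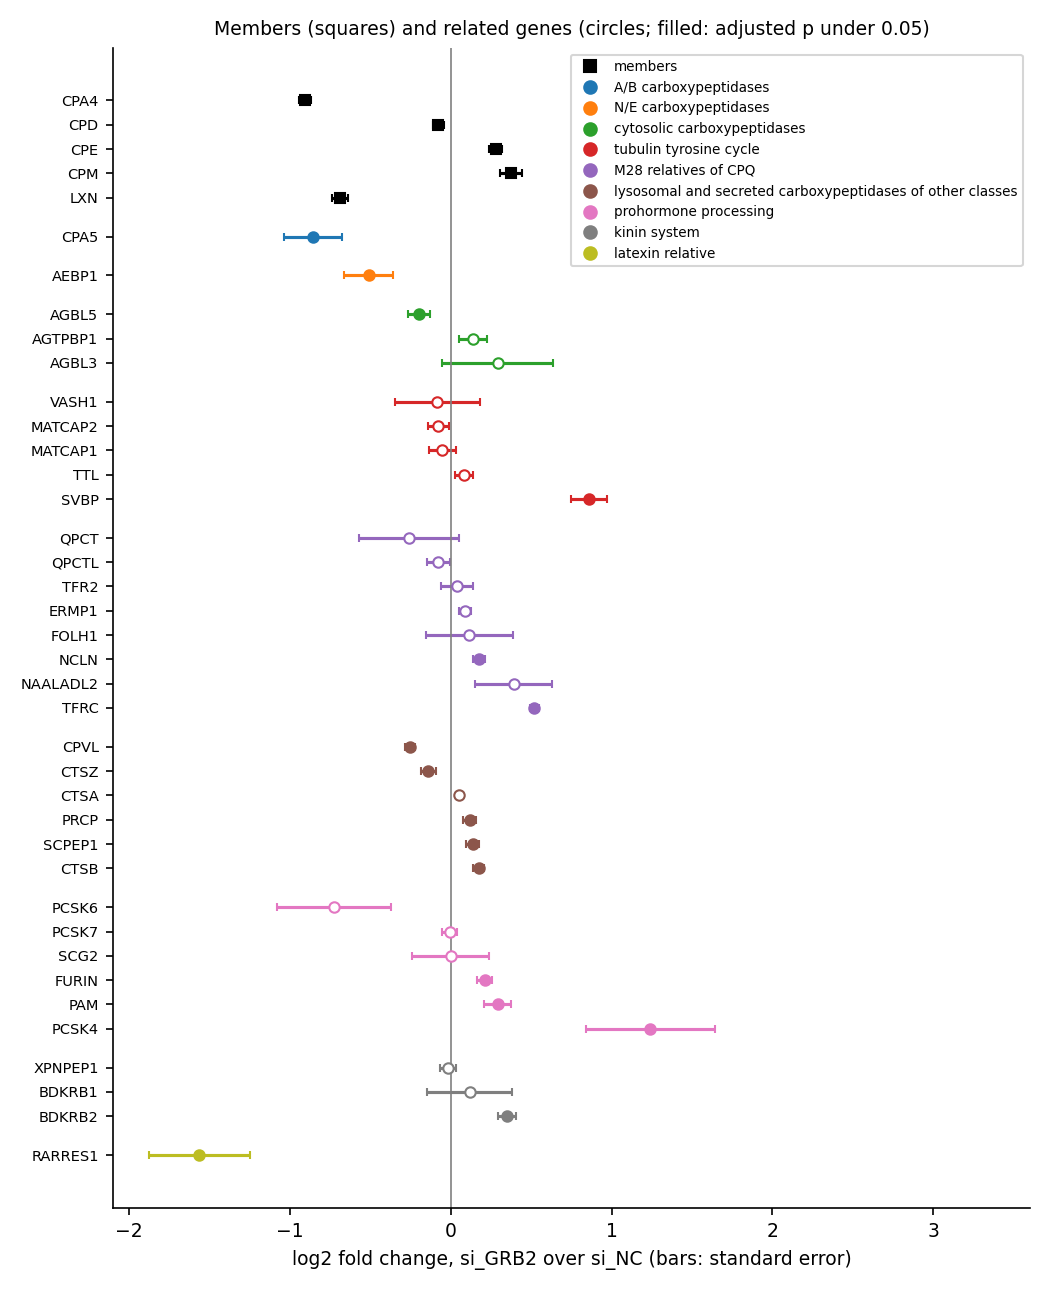
The log2 fold change of si_GRB2 over si_NC with its standard error is given for the 5 tested members (black squares) and 34 related genes (circles, coloured by list, filled where adjusted p was under 0.05). CPA4, LXN, CPA5, AEBP1, RARRES1 and PCSK6 lie from −1.56 to −0.51, and SVBP at 0.86 and PCSK4 at 1.24 lie furthest to the right. PCSK6, of the prohormone list, is at −0.73 (SE 0.36) and is not filled.

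The profile of CPA4 over the 6 libraries was set beside those of 10623 other genes with a mean of at least 5 CPM, by the root mean square difference of log2 CPM relative to the si_NC mean. As CPA4 was chosen for its lower level, the nearest genes are a description. The nearest was TXNIP, the thioredoxin-interacting protein, with a difference of 0.0297, followed by DEK, a chromatin protein, at 0.0375, DUSP4, a phosphatase of MAP kinases, at 0.0375, COPB2, a coat subunit of COPI vesicles, at 0.0376, and PROCR, the protein C receptor, at 0.0537. TXNIP went from 73.5 ± 2.46 to 38.5 ± 0.0720 CPM and DUSP4 from 73.9 ± 1.33 to 39.1 ± 1.502 CPM (SD, n = 3 each). LXN ranked 68th at 0.165, and CPD, CPE and CPM ranked 3188, 9842 and 10258.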

How the data were processed

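The authors sequenced strand-specific poly(A) libraries paired-end, trimmed the reads with FASTX-Toolkit and aligned them by HISAT2 against GRCh38. Only uniquely mapped reads entered the tables. They deposited the raw read count per gene and, in a second table, FPKM rounded to 2 decimals. The counting tool, strand setting, annotation and FPKM total are not given in the sources used here.

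Counts were scaled with TMM factors and filtered to 15801 genes with filterByExpr in edgeR 4.0.16 (R 4.3.3), whose quasi-likelihood test compared si_GRB2 with si_NC (3 libraries each, no covariate) with Benjamini-Hochberg adjustment over all genes kept. The study's methods name DESeq2, which was run as an alternative (1.42.0), as was limma 3.58.1 on log2(FPKM + 1) and log2(FPKM + 0.1). The code of the edgeR step was run on counts simulated with the dispersions of that fit, which cannot test the model itself. Standard errors (SE) were taken as |log2 fold change|/√F. Gene positions came from GENCODE 44 (99.7% of identifiers matched) and promoters from RefSeq on GRCh38.p14. Intervals and the floor of 3 reads cover counting error only.

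The members and lists were chosen with earlier results of these data known. Besides the members and GRB2, the genes named are, per list, at most 4 called genes of largest change and the 2 most abundant not called, at most 3 neighbours per member within 250 kb, overlapping ones first, and the 5 genes most like CPA4. MFSD1, PRCP and PCSK6 were named outside this rule after their values were seen, as were markers and genes with few reads.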

Additional observations from a re-analysis of the deposited data

How the results depend on the processing

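The log2 fold changes of the 5 tested members kept their sign under all 15 alternative fits, and 68 of 75 refitted values moved by less than the SD between replicates. The exceptions used FPKM. With limma on log2(FPKM + 1), with or without a mean FPKM of at least 1, CPA4 was at −0.81, CPM at 0.27 and LXN at −0.61, and with log2(FPKM + 0.1) CPA4 was at −0.86. With single libraries left out, CPA4 ranged from −0.92 to −0.89, LXN from −0.73 to −0.66, CPE from 0.25 to 0.31, CPM from 0.31 to 0.41 and CPD from −0.11 to −0.043. The number of members called was 4 in all of these fits, and the number of DEGs was 2. With glmTreat, which tests against the fold-change limit itself, 1 member, 0 genes of the lists and 56 of all genes were DEGs.

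The 16 calls among list genes became 9 with DESeq2, 6 with limma on log2(FPKM + 1), 7 with log2(FPKM + 0.1) and 8 with a mean FPKM of at least 1. Their 3 DEGs became 0, 1 and 1 in those 3 limma fits. The fits cover unlike sets of genes, so their counts are not of the same genes. The main fit held the genes kept by filterByExpr. Limma was run on every gene with FPKM above 0 in any library, or in the last fit only with a mean FPKM of at least 1. CPA5, AEBP1, PCSK4 and RARRES1 were below that limit and were not in the last fit. Of all genes, 398 were DEGs, against 79, 144 and 96 in the same limma fits, and 4838 had an adjusted p under 0.05, against 1400, 1534 and 2689. The cause was not tested. With single libraries left out, 11 to 15 list genes were called, 2 to 3 as DEGs, and 321 to 420 of all genes were DEGs.

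Genes near 0 changed sign. PCSK7 was at 0.026 with limma on log2(FPKM + 1), with or without the filter, and 0.036 with log2(FPKM + 0.1), and XPNPEP1 at 0.019 and 0.023. SCG2 was at −0.0031 without a filter on low counts, −0.0065 with at least 10 counts in every library and −0.012 with the replicate block. With single libraries left out, PCSK7 ranged from −0.064 to 0.039, SCG2 from −0.19 to 0.17, BDKRB1 from −0.10 to 0.36 and XPNPEP1 from −0.051 to 0.0025.

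Over 10627 genes, the deviations of same-numbered libraries correlated at 0.36, −0.19 and 0.053, and those of differently numbered libraries at −0.38 to 0.39. As not every same-numbered pair was above 0.1, the numbers were not taken to pair the libraries. A replicate block gave 459 DEGs, 4 members and 15 list genes called, with CPA4 at −0.91. Depth limits genes with few reads, such as PCSK4 (SE 0.40), AGBL3 (0.34) and RARRES1 (0.31).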
